A study of Homo sapiens with 3 samples.

Results

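The glycolysis and lactate genes are 33 genes that carry glucose into the cell, break it down to pyruvate, turn pyruvate into lactate and export it, or control whether pyruvate enters the mitochondrion. They were chosen by a fixed list of gene symbols, and all 33 were found among the 27574 genes counted. The data are read counts per gene from RNA sequencing of 3 libraries, named here replicates 1, 2 and 3, of H82R cells. H82 cells are a long-established line from a human small cell lung cancer. Each library is labelled as treated with etoposide plus cisplatin, drugs that damage DNA, and the letter R is not explained. The libraries form a single group without an untreated or parental counterpart analysed here, so levels and their spread can be given but no effect of the drugs. The labels do not state whether they are separate cultures, so p-values measure only the spread between these libraries, which may be technical.

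Glycolysis splits glucose into pyruvate in the cytosol. Hexokinase, phosphofructokinase and pyruvate kinase catalyse its irreversible steps, and most steps have several isoenzymes encoded by separate genes with different tissue patterns. Pyruvate is either reduced to lactate by lactate dehydrogenase, which regenerates the oxidised cofactor that glycolysis needs, or oxidised in mitochondria by the pyruvate dehydrogenase complex. The pyruvate dehydrogenase kinases switch that complex off. Many tumours make lactate even with oxygen present, and neuron-specific enolase, the product of ENO2, is a serum marker of small cell lung cancer.

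Replicates 1, 2 and 3 held 25013265, 42610181 and 23868201 counts. Levels are given as CPM, counts normalised to the effective library size, and, wherever genes are compared with each other, as CPM per kb of exon, which removes the effect of gene length on the count. Neuroendocrine markers were present: per kb of exon, UCHL1 stood at 264 ± 6.32 CPM (SD, n = 3), NEUROD1 at 130 ± 13.9, SYP at 61.0 ± 1.83, CHGA at 44.3 ± 5.20, NCAM1 at 9.73 ± 0.577 and INSM1 at 3.30 ± 0.292. Of these, INSM1 lay below the median detected gene, at -1.16 on the log2 scale (limma, adjusted p = 2.4e-05), and the other 5 lay above it. Of 21 markers of leukocytes, fibroblasts, endothelium, erythroid cells, muscle and liver, 7 reached 10 counts or more in each library, and the summed level of all 21 was 39.8, 43.7 and 33.5 CPM in replicates 1, 2 and 3. The 7 were CD68 (22.6 ± 3.71 CPM), CD3E (7.62 ± 2.23), PDGFRB (3.52 ± 0.863), ACTA1 (1.53 ± 0.0654), PECAM1 (0.876 ± 0.411), COL1A1 (0.685 ± 0.298) and VWF (0.406 ± 0.0102). CD68 lay above the median gene per kb and, without a length correction, below it at -0.37 on the log2 scale. The other 14 each had a mean under 0.5 CPM, and ALB had no count in any library. Fewer cells of a type and less RNA per cell cannot be told apart in such bulk libraries.

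Most of the glycolysis and lactate genes were expressed, and a few of them were among the most abundant messages of the cells. By mean CPM among the 27574 genes, ENO1 ranked 22, GAPDH 23, PKM 58 and LDHB 69. Other enzymes of the lower pathway ranked lower, TPI1 at 186, PGK1 at 243 and PGAM1 at 1049. With at least 10 counts required in every library, 30 of the 33 genes were detected, against 53% of all genes. HK3, the hexokinase of blood cells, had 1, 0 and 0 counts in replicates 1, 2 and 3. PKLR, the pyruvate kinase of liver and red cells, had 0, 1 and 0 counts, and PFKFB1, a liver and muscle regulator of phosphofructokinase, had 5, 13 and 6. The upper limit for a count of 0 was 0.121 CPM in replicate 1, 0.0702 in replicate 2 and 0.125 in replicate 3 (3 counts, counting error only). The 33 genes together took 1.098%, 0.941% and 1.05% of all counts in replicates 1, 2 and 3, with exact 95% binomial intervals of 1.094% to 1.102%, 0.938% to 0.944% and 1.04% to 1.05%. ENO1, GAPDH, PKM and LDHB made up 62.1%, 59.5% and 61.0% of that sum.

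Each gene was tested against the median detected gene of the same library, which stood at 7.42, 7.29 and 7.46 CPM per kb in replicates 1, 2 and 3, with limma-trend and Benjamini-Hochberg adjustment over all 13532 detected genes of known exon length. Of the 30 detected genes, 21 lay above the median gene, where 45.5% of all tested genes did. A further 8 lay below it, again against 45.5% of all tested genes, and PFKP was not distinguished from it (adjusted p = 0.053). The median distance of the 30 genes was 2.33 on the log2 scale, against -0.01 over all tested genes. The detection filter sets which members enter this count: the 3 undetected genes are not in it.

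**Figure D1:**
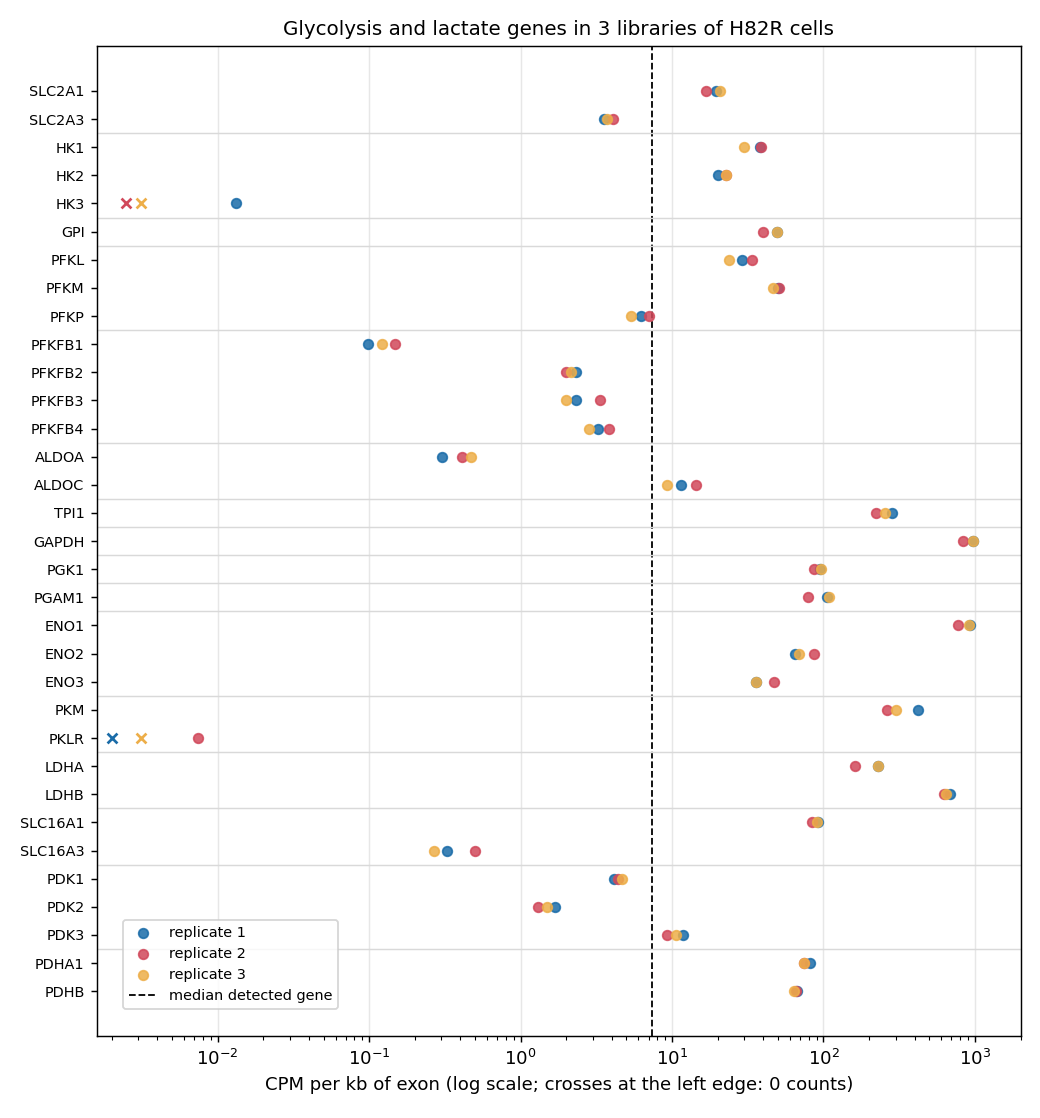
Level of each of the 33 genes in each library, in CPM per kb of exon on a log axis, ordered from glucose entry at the top to pyruvate dehydrogenase at the bottom; points are libraries, crosses are libraries with 0 counts, and the dashed line is the mean of the 3 libraries' median detected gene. GAPDH and ENO1 lie farthest to the right, at means of 922 and 875 CPM per kb, while ALDOA and SLC16A3 lie below 1 CPM per kb.

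**Figure D2:**
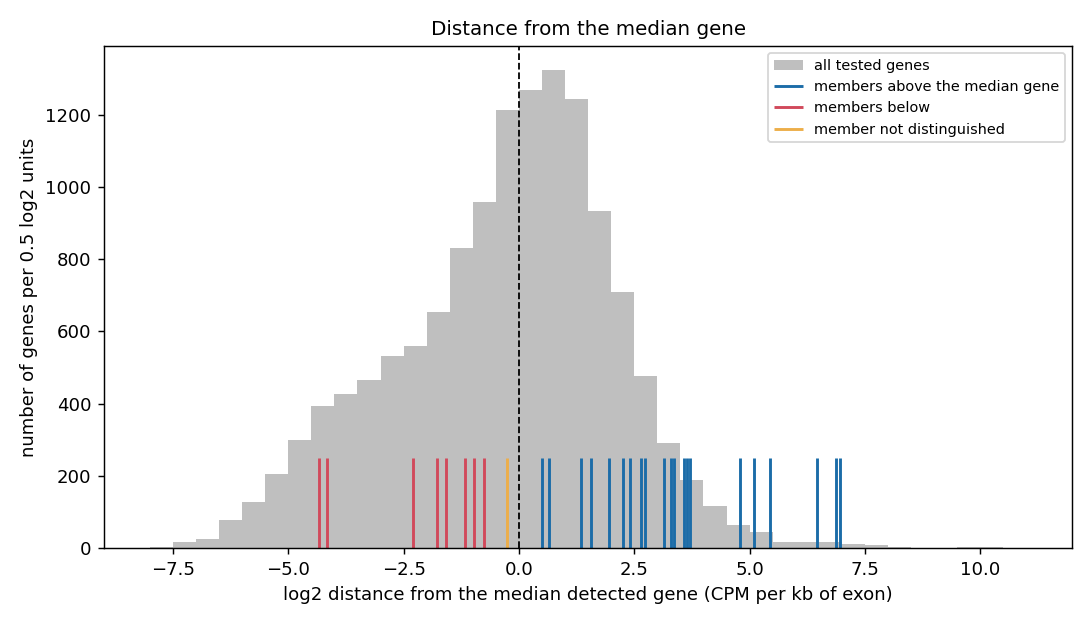
Histogram of the log2 distance of all 13532 tested genes from the median detected gene (CPM per kb of exon, bins of 0.5), with a vertical line for each of the 30 detected glycolysis and lactate genes. The 21 genes called above the median gene reach 6.96, and the 8 genes called below it reach -4.34.

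Glucose enters through facilitative transporters. SLC2A1, the widely expressed transporter, stood at 19.4, 16.7 and 20.8 CPM per kb in replicates 1, 2 and 3, and SLC2A3, the neuronal transporter of high affinity, at 3.55, 4.05 and 3.74. The ranges did not overlap, and SLC2A1 was 5.47, 4.13 and 5.55 times as high as SLC2A3. SLC2A1 lay above the median gene by 1.35 ± 0.08 (SE) on the log2 scale (limma, adjusted p = 7.1e-07) and SLC2A3 below it by -0.97 ± 0.11 (adjusted p = 3.6e-05). SLC2A1 spans chr1:42925375-42959176 on GRCh38 and SLC2A3 chr12:7919230-7936275.

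Hexokinase traps glucose in the cell as its phosphate. HK1, the broadly expressed form, stood at 38.4, 38.5 and 29.98 CPM per kb, and HK2, the form of muscle and many tumours, at 20.2, 22.6 and 22.8. HK1 was higher in every library, but its lead was smallest in replicate 3, with ratios of 1.90, 1.70 and 1.31 (95% binomial intervals 1.81 to 1.99, 1.65 to 1.76 and 1.252 to 1.38). GPI, which isomerises glucose phosphate to fructose phosphate, stood at 49.6, 40.2 and 49.2 CPM per kb, lowest in replicate 2.

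Phosphofructokinase commits sugar to glycolysis and works as a tetramer of muscle, liver and platelet subunits. The muscle-type gene PFKM led with 50.04, 50.7 and 46.7 CPM per kb. The liver-type gene PFKL followed with 29.1, 33.7 and 23.7, and the platelet-type gene PFKP was lowest with 6.29, 7.02 and 5.39. None of the 3 ranges overlapped, so the order was the same in every library, and PFKM made up 58.5% ± 3.08 of the summed level, PFKL 34.1% ± 2.79 and PFKP 7.38% ± 0.284 (SD, n = 3). PFKM lay above the median gene by 2.73 ± 0.07 (SE) and PFKL by 1.95 ± 0.10 on the log2 scale (limma, adjusted p = 6.8e-09 and 4.1e-07).

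The PFKFB enzymes make and remove the sugar bisphosphate that activates phosphofructokinase. All 3 detected members lay below the median gene. PFKFB4 stood at 3.24, 3.86 and 2.83 CPM per kb, PFKFB3, the form with the strongest kinase activity, at 2.31, 3.32 and 1.99, and PFKFB2, the heart form, at 2.32, 2.002 and 2.17. PFKFB2 and PFKFB3 could not be ordered: their ratio was 1.01 and 1.09 in replicates 1 and 3 and 0.602 in replicate 2 (exact sign-flip test, p = 1.0). PFKFB3 had the widest spread but 1 of the detected genes, with a coefficient of variation of 27.4%, and replicate 2 was its high library.

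Aldolase splits the sugar bisphosphate into trioses. ALDOA, the general form, had 18, 42 and 27 counts, or 0.301, 0.408 and 0.468 CPM per kb, and ALDOC, the brain form, 11.4, 14.4 and 9.32 CPM per kb. ALDOA therefore stood at 0.0264, 0.0283 and 0.0502 times ALDOC and lay below the median gene by -4.16 ± 0.21 (SE) on the log2 scale (limma, adjusted p = 3.1e-07), while ALDOC lay above it by 0.64 ± 0.13 (adjusted p = 0.0018). Without a length correction ALDOC lay at -0.30 (adjusted p = 0.063). The ALDOA count is uncertain. In GENCODE 29, 93.8% of its coding bases are shared with a longer gene on the same strand, AC093512.2, and RefSeq has a protein-coding gene, LOC112694756, over it, and neither name is in the count table. LDHB shares 93.5% of its coding bases with AC010197.2 in GENCODE 29 but has no such protein-coding neighbour in RefSeq, and it held 26800, 42277 and 24390 counts. Among the 443 genes of the table that share at least 90% of their coding bases, 39.7% were detected, against 53% of all genes. The detected ones had a median of 4.44 CPM. The median of all detected genes was 25.3, 24.8 and 25.1 CPM in replicates 1, 2 and 3. How the counting treated shared reads was not tested. ALDOA spans chr16:30064164-30070457 and ALDOC chr17:28573115-28577264.

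The lower part of the pathway runs from the trioses to pyruvate and returns the energy as ATP. TPI1, which interconverts the trioses, stood at 283, 224 and 256 CPM per kb in replicates 1, 2 and 3. GAPDH, which oxidises the triose phosphate, stood at 965, 831 and 969 CPM per kb and lay 124-fold above the median gene, at 6.96 ± 0.09 (SE) on the log2 scale (limma, adjusted p = 7.4e-10). PGK1, the kinase that makes the earlier ATP of the pathway, stood at 94.3, 86.0 and 96.4, and PGAM1, the mutase that follows, at 105, 79.5 and 108. Replicate 2 was the lowest library for all 4 genes. GAPDH spans chr12:6533927-6538374, in a stretch of chromosome 12 that also holds TPI1 (chr12:6867119-6870948) and ENO2 (chr12:6913745-6923698).

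Enolase makes phosphoenolpyruvate, and 3 genes encode its subunits. ENO1, the general form, stood at 935, 779 and 911 CPM per kb. ENO2, the neuron-specific form, stood at 64.8, 86.9 and 69.3, and ENO3, the muscle form, at 35.8, 47.4 and 36.0. The 3 ranges did not overlap, and ENO1 made up 90.3%, 85.3% and 89.6% of the summed enolase level. Replicate 2 was the low library for ENO1 and the high library for ENO2 and ENO3, so ENO1 exceeded ENO2 by 14.4, 8.97 and 13.1 times. All 3 genes lay above the median gene, ENO1 by 6.88 ± 0.09, ENO2 by 3.30 ± 0.09 and ENO3 by 2.41 ± 0.10 (SE, log2 scale; limma, adjusted p = 7.6e-10, 1.4e-08 and 1.1e-07). Of the 3 muscle markers, ACTA1 stood at 1.53, 1.59 and 1.46 CPM, CKM at 0.604, 0.538 and 0.209 and MYH7 at 0.322, 0.445 and 0.125, and their part in the ENO3 level was not tested.

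Pyruvate kinase makes pyruvate and ATP. PKM stood at 420, 264 and 300 CPM per kb, with replicate 1 high, and lay above the median gene by 5.44 ± 0.12 (SE) on the log2 scale (limma, adjusted p = 4.5e-09). Its coefficient of variation, 24.9%, was larger than that of GAPDH (8.51%) or ENO1 (9.61%). Against PKLR it was at least 11006 times higher in replicate 1 and at least 7586 times in replicate 3, where PKLR had 0 counts (bound at 3 counts per library), and 35748 times in replicate 2 (95% binomial interval 6416 to 1412012). The counts are per gene and do not separate the M1 and M2 splice forms of PKM. PKM spans chr15:72199029-72231822.

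Lactate dehydrogenase is a tetramer of A subunits, typical of muscle, and B subunits, typical of heart. Per kb of exon, LDHA stood at 230, 162 and 230 CPM and LDHB at 680, 624 and 642. The ranges did not overlap, and LDHB led in every library, with LDHA at 0.338, 0.259 and 0.358 times LDHB (95% binomial intervals 0.332 to 0.345, 0.255 to 0.264 and 0.351 to 0.365). Both lay far above the median gene, LDHB by 6.45 ± 0.07 and LDHA by 4.79 ± 0.11 (SE, log2 scale; limma, adjusted p = 7.4e-10 and 4.0e-09). With the longest transcript as length, the mean ratio of LDHA to LDHB was 0.376 in place of 0.315.

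Lactate and pyruvate cross the plasma membrane on monocarboxylate transporters. SLC16A1, the general transporter, stood at 91.6, 84.5 and 90.9 CPM per kb. SLC16A3, the exporter typical of strongly glycolytic cells, had 42, 111 and 33 counts, or 0.327, 0.502 and 0.266 CPM per kb. SLC16A1 exceeded it by 280, 168 and 342 times (95% binomial intervals 207 to 389, 140 to 205 and 243 to 497). SLC16A3 was the lowest of the 30 detected genes relative to the median gene, at -4.34 ± 0.22 (SE) on the log2 scale (limma, adjusted p = 2.8e-07), and SLC16A1 lay at 3.59 ± 0.07 (adjusted p = 1.9e-09). BSG, the chaperone that carries SLC16A1 to the membrane, stood at 336, 328 and 310 CPM per kb. SLC16A1 spans chr1:112911847-112957013 and SLC16A3 chr17:82228397-82261129.

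The pyruvate dehydrogenase complex takes pyruvate into the mitochondrial citrate cycle. PDHA1 and PDHB, the alpha and beta subunits of its first enzyme, stood at 81.5, 74.7 and 74.1 and at 67.0, 65.6 and 63.8 CPM per kb. Their ratio of 1.22, 1.14 and 1.16 varied least of the 15 pairs compared (SD 0.049 on the log2 scale). Among the kinases that switch the complex off, PDK3 stood at 11.8, 9.30 and 10.6 CPM per kb, PDK1, which responds to hypoxia in many cells, at 4.13, 4.40 and 4.69, and PDK2 at 1.68, 1.30 and 1.49. PDK3 lay above the median gene by 0.51 ± 0.10 and PDK1 and PDK2 below it, at -0.75 ± 0.07 and -2.31 ± 0.14 (SE, log2 scale; limma, adjusted p = 0.0012, 2.0e-05 and 8.0e-07). The call for PDK1 turns with the length correction: without one it lay at 1.12 (adjusted p = 1.5e-06) and PDK3 at -0.12 (adjusted p = 0.25). With genes of at least 1 count kept, PDK1 lay at 0.21 (adjusted p = 0.029). With the comprehensive exon set PDK3 lay at -0.052 (adjusted p = 0.63). PDK4, which is not in the list of 33, stood at 16.1, 11.9 and 12.9 CPM per kb. In GENCODE 29, 38.6% of the exon bases of PDK2 and 21.3% of those of PDHA1 lie opposite exons of genes on the other strand. Since it is not stated whether counting used strand, reads of such partners cannot be told apart.

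**Figure D3:**
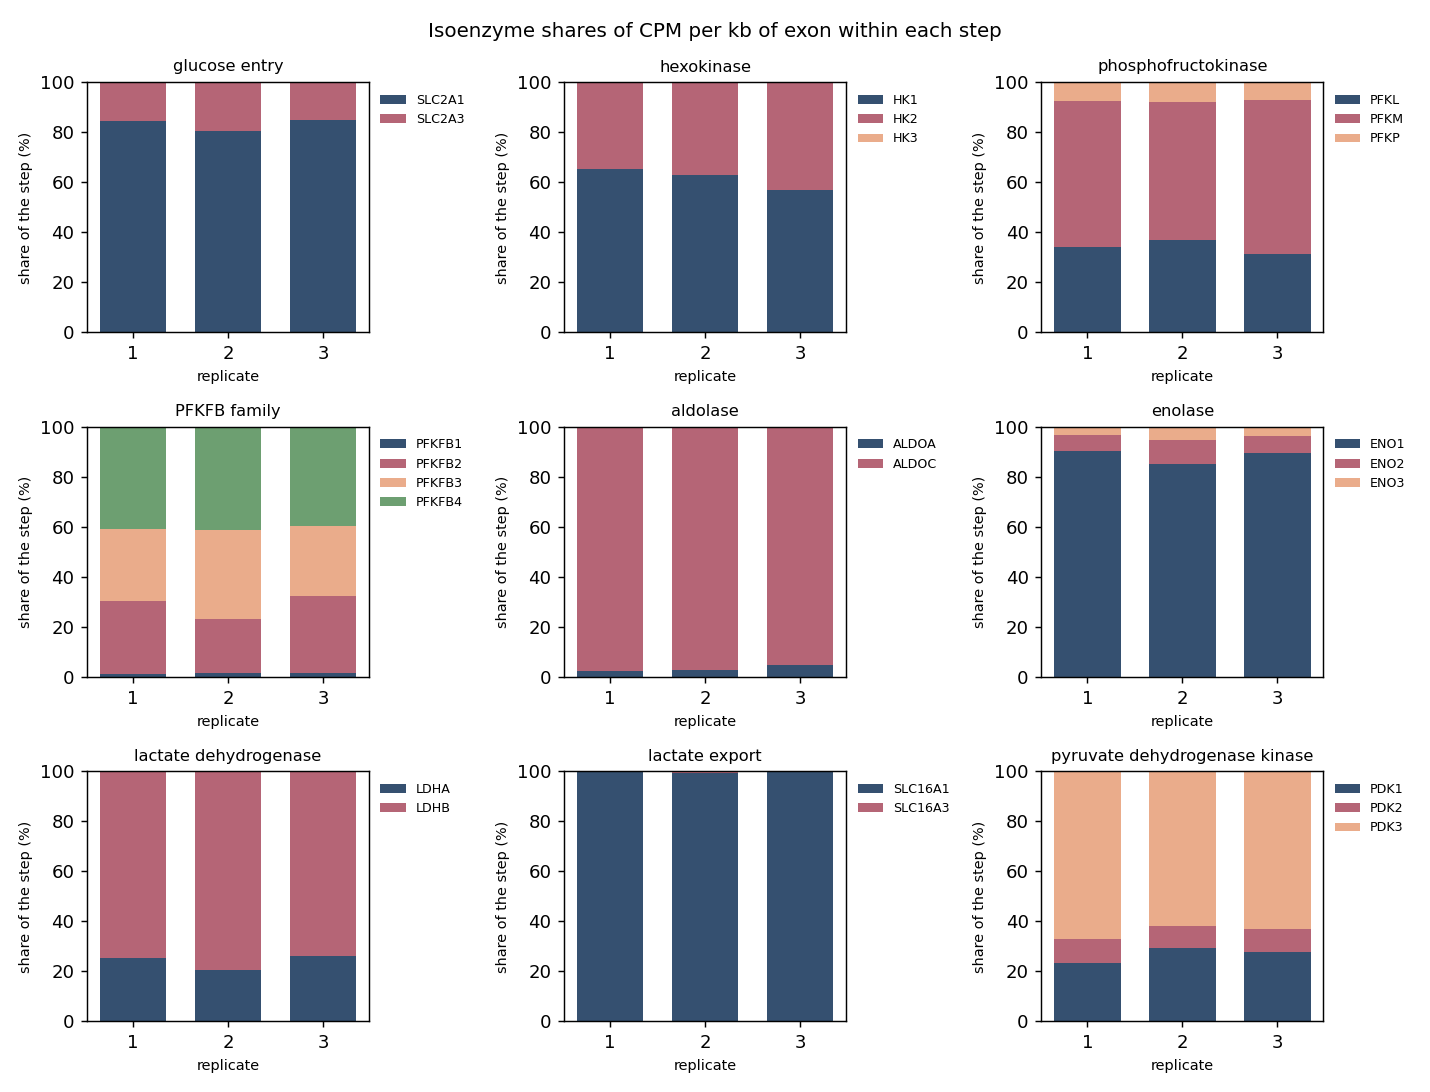
Share of each isoenzyme gene in the summed CPM per kb of exon of its step, in percent, for each of the 3 libraries; every stacked bar adds to 100%, and the panels for pyruvate kinase and the pyruvate dehydrogenase subunits are left out. LDHB, SLC16A1, ENO1, ALDOC and SLC2A1 hold most of their step in all 3 libraries, whereas hexokinase and phosphofructokinase are split between several genes. The share of ALDOC rests on the uncertain count of ALDOA.

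The order of isoenzymes was nearly the same in the 3 libraries. Of the 15 pairs compared, 14 had the same gene ahead in all 3 libraries. They include ALDOA against ALDOC, which rests on the uncertain count of ALDOA. PDHA1 against PDHB is also among them and compares subunits of the same enzyme, not isoenzymes. PFKFB2 against PFKFB3 was the exception. With the longest transcript as length, PFKFB3 against PFKFB4 was a further one, with ratios of 0.856, 1.04 and 0.848. The order of some pairs also turns with the length correction. By plain counts PDK1 stood at 1.98, 2.69 and 2.51 times PDK3, and PFKFB3 at 1.08, 1.31 and 1.07 times PFKFB4, the reverse of the order per kb. No two-sided exact sign-flip test over 3 libraries can give a p below 0.25, so none of the 15 could pass (adjusted p = 0.268 for the 14). Summed over isoenzymes, enolase (988 ± 65.9 CPM per kb), GAPDH (922 ± 78.4) and lactate dehydrogenase (856 ± 63.9) were highest and their ranges over libraries overlapped from each to the next. Pyruvate kinase (328 ± 81.5) and TPI1 (254 ± 29.4) followed, overlapping each other and separate from the enzymes above. The alpha and beta subunits of pyruvate dehydrogenase, parts of the same enzyme rather than isoenzymes, summed to 142 ± 5.596 and overlapped no neighbour. Taken singly, PDHA1 (mean 76.8) and PDHB (65.5) lay below phosphofructokinase (84.2), so the place of this sum depends on adding them. PGAM1, PGK1, the lactate exporters and phosphofructokinase lay between 84.2 and 97.4 in mean and overlapped, and hexokinase (57.5 ± 4.27), GPI (46.3 ± 5.35) and glucose entry (22.8 ± 1.88) were lower, each separate from the next. Aldolase had the lowest sum of the enzymes of glycolysis proper, 12.1 ± 2.55 CPM per kb, a value that rests on the uncertain count of ALDOA.

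The spread between libraries was larger than counting error for most of the genes. In a chi-square test of homogeneity, 26 of the 30 detected genes differed between libraries beyond counting error, against 68.7% of all detected genes. The test picks up smaller differences in genes with more counts. The 30 genes had a median of 37.7 CPM per kb, against 7.39 over all detected genes of known exon length, so the 2 shares are not like for like. SLC2A3, ALDOA, PDK2 and PDHB did not pass (adjusted p = 0.145, 0.39, 0.0608 and 0.244). Without replicate 2 the count was 13, against 39% of all genes detected there. It was 22 without replicate 1, against 52.8%, and 23 without replicate 3, against 51.1%. The median coefficient of variation of the 30 genes, 11.8%, equalled that of all detected genes, and it ranged from 2.47% for PDHB to 33.6% for SLC16A3.

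Replicate 2 was low for several abundant enzymes and high for several less abundant genes. It was the lowest library for 14 of the 30 genes, against 36.4% of all detected genes, and the highest for 11, also against 36.4%. Replicate 1 was lowest for 6 (30.3% of all) and highest for 12 (31.1%), and replicate 3 lowest for 10 (33.3%) and highest for 7 (32.5%). In 11 genes it stood under 0.9 times the mean of replicates 1 and 3, against 29.3% of all detected genes, with LDHA at 0.704, PKM at 0.734, PGAM1 at 0.747, GPI at 0.813 and ENO1 at 0.844. In 10 genes it stood over 1.1 times that mean, against 30.6%, with SLC16A3 at 1.69, PFKFB3 at 1.55, ALDOC at 1.39, ENO3 at 1.32 and ENO2 at 1.29. All 8 members with at least 400 CPM in mean lay below 1 in replicate 2, from 0.704 to 0.944, and 5 of them under 0.9. Of all 303 detected genes at that level, 39.6% lay below 1 and 18.8% under 0.9, and their median ratio was 1.04. The 400 CPM limit was set after the values were seen. Replicate 2 was also the deepest library, and the median ratio over quartiles of exon length ran from 0.975 for the longest to 1.01 for the shortest genes. By quartile of mean CPM, the median ratio over all these genes was 1.06 in the lowest and 0.984 in the highest. In the lowest quartile 45.2% of genes stood over 1.1, and in the highest 21.5% did. The part of depth, abundance and length in these ratios was not tested.

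**Figure D4:**
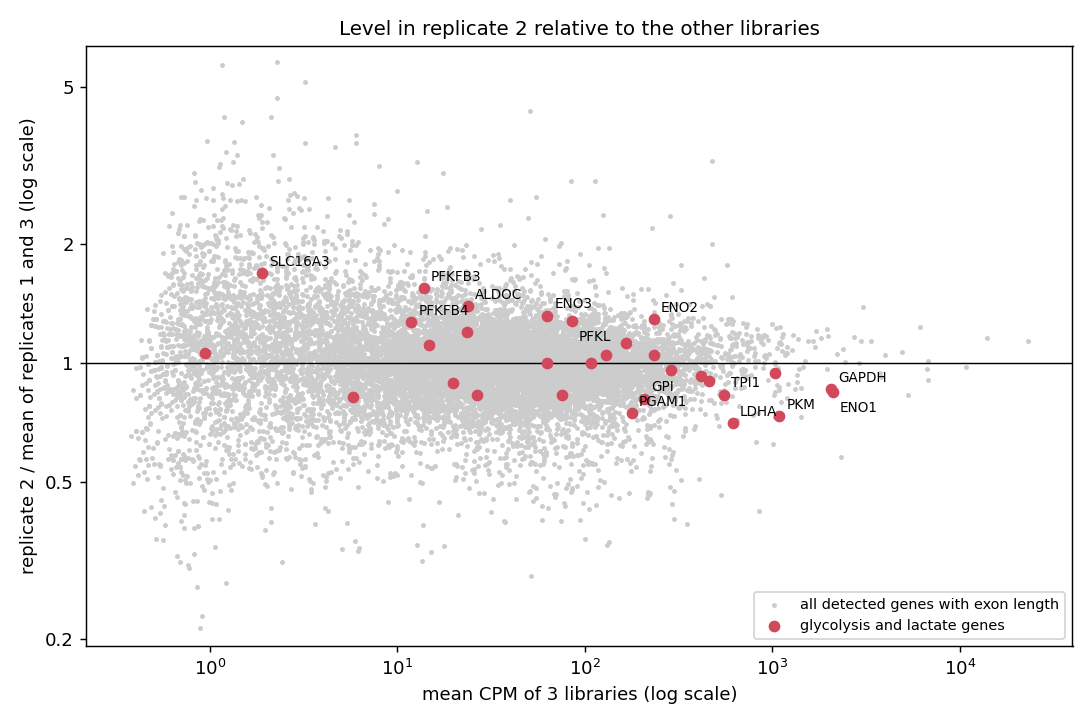
Level in replicate 2 divided by the mean of replicates 1 and 3 (log axis) against the mean CPM (log axis); grey points are the 13532 detected genes with a known exon length and red points the 30 detected glycolysis and lactate genes. LDHA (0.704) and PKM (0.734) are low among the abundant genes, while SLC16A3 (1.69) and PFKFB3 (1.55) are high.

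Of 16 regulators of the pathway, 6 stood under 0.9 times the others in replicate 2 and 4 over 1.1 times, shares near those of all detected genes (29.3% and 30.6%). MYC, a transcription factor that drives many glycolytic genes, stood at 939, 641 and 796 CPM in replicates 1, 2 and 3, lowest in replicate 2 at 0.739 times the others. HIF1A, the hypoxia factor, was picked with its values known and stood at 111, 78.3 and 113 CPM, a ratio of 0.700. TXNIP, which restrains glucose uptake, stood at 89.9, 148 and 93.3 CPM, a ratio of 1.62. Other regulators, also picked with their values known, had ratios of 0.981 (MAX, the partner of MYC), 1.11 (ARNT) and 1.63 (MLXIPL). The part of these regulators in the levels of the glycolysis and lactate genes was not tested. Of the 16, 11 lay above the median gene, 4 below and 1 was not distinguished, with MYC, FOXK2 (37.2 ± 2.06 CPM per kb) and TXNIP highest. Over all tested genes, 45.5% lay above and 45.5% below.

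MYC with its partner MAX binds the letters CACGTG, and the hypoxia factors bind sites that often hold ACGTG. Other forms of these sites were not searched. Both strings were searched on both strands in the 250 bases upstream of each RefSeq start (GRCh38.p14), where 30 of the 33 genes had an entry; every CACGTG also counts as an ACGTG. The longer string was found upstream of 9 of the 30 genes, against 7.73% of all 27305 genes with an entry and 11.2% of the detected ones. ACGTG was found upstream of 18 of the 30, against 21.7% of all and 28.6% of detected genes. The 30 genes have 61 start sites in the table, and by start site the counts were 9 and 21 of 61, against 6.34% and 18.5% of all start sites. CACGTG was upstream of 5 of the 20 genes above the median gene and of 4 of the other 10. A match describes the sequence and is not a bound site. To show windows with and without the strings, LDHA (chr11:18394313-18394387, plus strand) and GAPDH (chr12:6535014-6535263, plus strand) are given as abundant genes with CACGTG, LDHB (chr12:21657843-21658092, minus strand) as an abundant gene without either string, and PKLR (chr1:155301439-155301688, minus strand) as an undetected gene with CACGTG. Capitals mark CACGTG or ACGTG on either strand, and each sequence runs 5′ to 3′ toward the start site. Of LDHA only the first 75 bases of the window are printed, since GENCODE 29 annotates the remaining 175 as untranslated region of a longer transcript. The RefSeq starts used for GAPDH and LDHB are internal to the GENCODE 29 gene spans, and both windows lie wholly inside them.
LDHA upstream: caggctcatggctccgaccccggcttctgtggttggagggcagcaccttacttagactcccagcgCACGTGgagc
GAPDH upstream: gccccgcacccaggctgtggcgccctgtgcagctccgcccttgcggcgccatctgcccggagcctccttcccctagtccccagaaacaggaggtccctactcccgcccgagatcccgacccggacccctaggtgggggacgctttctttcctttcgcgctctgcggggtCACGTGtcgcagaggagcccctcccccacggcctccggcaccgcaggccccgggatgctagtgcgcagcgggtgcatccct
LDHB upstream: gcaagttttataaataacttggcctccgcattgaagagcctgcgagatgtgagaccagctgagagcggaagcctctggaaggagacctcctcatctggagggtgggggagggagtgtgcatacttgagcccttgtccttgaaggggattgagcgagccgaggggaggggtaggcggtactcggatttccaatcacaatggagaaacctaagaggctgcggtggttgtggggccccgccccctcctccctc
PKLR upstream: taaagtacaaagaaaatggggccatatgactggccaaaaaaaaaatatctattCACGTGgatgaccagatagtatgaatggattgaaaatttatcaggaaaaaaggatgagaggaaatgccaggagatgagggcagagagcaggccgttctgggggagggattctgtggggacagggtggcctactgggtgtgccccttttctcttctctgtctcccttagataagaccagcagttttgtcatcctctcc
The printed stretches of LDHA, GAPDH and PKLR held 1 marked place each. They were 64.0% G and C in LDHA, 71.2% in GAPDH, 58.0% in LDHB and 46.0% in PKLR.

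The genes around the pathway set the 33 in context. Of 22 other genes with names or activities related to these steps, 12 were detected, 2 above the median gene and 10 below. The 2 above were PGAM5 (31.3 ± 2.22 CPM per kb), known as a mitochondrial protein phosphatase rather than a mutase of glycolysis, and ADPGK (17.7 ± 1.79), a glucokinase that uses ADP, with GAPDHS next at 5.81 ± 0.560 (above the median gene, at 0.61 on the log2 scale, when genes with 1 count in any library were kept) and SLC2A6 lowest at 0.355 ± 0.221. Of 9 lactate and pyruvate carriers and partners, BSG and MPC1 (9.59 ± 0.340) lay above, 6 lay below, among them SLC16A4 (4.58 ± 1.09) and SLC16A8 (1.56 ± 0.183), and 1 was not detected. Without a length correction MPC1 lay below the median gene, at -1.32 on the log2 scale (limma, adjusted p = 5.7e-06). With genes of at least 1 count kept, SLC16A4 stood at 0.24 (adjusted p = 0.13). Of 10 further genes of the pyruvate dehydrogenase complex and its control, 9 were detected. Of these, 7 lay above, led by DLAT (35.8 ± 3.52), DLD (24.2 ± 1.69) and PDK4, and 2 below, with LIPT1 (2.27 ± 0.164) lowest. In gluconeogenesis 5 of 9 genes were not detected, 3 lay above, G6PC3 (81.4 ± 5.38), PCK2 (39.2 ± 21.8) and SLC37A4 (21.9 ± 1.53), and PC (3.92 ± 0.997) lay below, at 0.012 with genes of at least 1 count kept. PCK2 stood at 70.8, 204 and 101 CPM, 2.38 times the others in replicate 2.

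Among 10 pentose phosphate genes, 9 were detected. The number above the median gene was 5 and the number below 2, where 45.5% of all tested genes lay on each side. PGD (156 ± 8.71 CPM per kb), TKT (142 ± 9.12) and TALDO1 (54.1 ± 1.39) were highest and H6PD (0.271 ± 0.149) lowest. Of 11 glycogen genes, 10 were detected and 8 lay above, among them PYGB (54.2 ± 2.44) and UGP2 (28.5 ± 1.58), and PYGM (0.645 ± 0.145) lay below. Of 14 citrate cycle genes, 12 lay above and SUCLG2 (5.72 ± 0.497) below, with MDH2 (112 ± 12.4), SDHB (89.0 ± 9.59) and CS (88.2 ± 3.87) highest. SUCLG2 lay above, at 0.58 (limma, adjusted p = 0.00025), with genes of at least 1 count kept, and at 0.045 with the comprehensive exon set. Of 9 genes of the cytosolic NADH shuttles, 6 lay above and 2 below, with GOT2 (147 ± 9.46), MDH1 (69.9 ± 1.94) and SLC25A13 (47.8 ± 0.695) highest and GPD2 (0.206 ± 0.0581) lowest.

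Reads from processed copies can be assigned to several of these genes. GENCODE 29 names 106 pseudogenes after members, 62 of them after GAPDH, 13 after PGAM1 and 6 after LDHA, and none of the 106 is a row of the count table, so the levels of these genes depend on how reads that match several places were treated.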

How the data were processed

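Total RNA of 3 libraries of H82R cells was sequenced; the authors deposited raw read counts per gene symbol as 1 table with 1 column per library, matched to its library by title. Per the submitters' processing notes, STAR 2.6.1b and hg38 were used, without a stated role. Counting program, annotation, strand setting and filters: not given in the sources used here. The table held 27587 names; 13 had been turned into dates (0.0665% to 0.0736% of the counts) and were left out. Effective library sizes were totals times TMM factors (edgeR 4.0.16; 0.993, 1.00 and 1.00).

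Exon lengths and positions came from GENCODE 29 (GRCh38, the same assembly as hg38). Among 27574 genes, 19590 matched directly and 501 through an older symbol; exon length was the union of exons of the basic set. Detected means at least 10 counts in every library. Log2 CPM (prior count 2) per kb, minus the library's median over detected genes, entered limma-trend (limma 3.58.1, R 4.3.3), two-sided, with Benjamini-Hochberg adjustment and a threshold of 0.05. A chi-square homogeneity test against effective library sizes assessed spread, and an exact sign-flip test (two-sided) the isoenzyme ratios. The labels form 1 group, so no contrast could be fitted with a count model. Both tests across genes were run on simulated data, with a fixed dispersion for the distance from the median gene and counting noise for homogeneity. The spread of these data was not reproduced there, so the simulations do not show how the tests behave here. Intervals are exact (Clopper-Pearson) 95% binomial intervals and, like floors, cover counting error only, since PCR copies of a molecule were not told apart.

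The members, lists, pairs and tests were chosen with earlier results of these data known. Genes named are all 33 members, the 3 highest and the lowest detected of each other list, and the neuroendocrine markers; 3 genes that this rule names are not reported here. HIF1A, MAX, ARNT, MLXIPL and further markers of other cell types were named after their values were seen. As alternatives, each library was left out in turn, and the following were tried: filters of 1 CPM in every library or 1 count in any, unscaled totals, size factors from DESeq2 1.42.0, a prior count of 0.5, no length correction, the longest transcript, limma-voom, edgeR's quasi-likelihood statistic for the intercept, protein-coding genes as reference, a threshold of 0.01 for the homogeneity test and a total without the 10 most abundant genes. Chosen after seeing the data were the comprehensive exon set and leaving out genes that share at least 50% of their coding bases.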

Additional observations from a re-analysis of the deposited data

How the results depend on the processing

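The number of members above the median gene stayed between 20 and 23 and the number below between 8 and 9 under every alternative run, those chosen after seeing the data included. Similar numbers need not mean the same genes. With any gene of at least 1 count kept, HK3, PKLR and PFKFB1 also enter, and the calls for PDK1 and PFKP turn to above. The number differing between libraries beyond counting error was 26, and 13 to 23 when 1 library was left out, the lowest without replicate 2. The share of counts averaged 1.03%, and 1.13% with the 10 most abundant genes left out of the total. Changes of side were as follows. Without a length correction ALDOC stood at -0.30, PDK1 at 1.12, PDK3 at -0.12, CD68 at -0.37 and MPC1 at -1.32 on the log2 scale. With any gene of at least 1 count kept, which lowers the median gene, PDK1 stood at 0.21, CD3E at 0.34, GAPDHS at 0.61, PC at 0.012, SLC16A4 at 0.24 and SUCLG2 at 0.58. With the comprehensive exon set PDK3 stood at -0.052, GAPDHS at 0.042 and SUCLG2 at 0.045. Without replicate 2 the mean ratio of PFKFB2 to PFKFB3 was 1.05 in place of 0.870 (0.778 to 1.05 over the libraries left out). By plain counts, in replicates 1, 2 and 3, PFKFB2 stood at 1.69, 1.01 and 1.83 times PFKFB3. PDK1 then stood at 1.98, 2.69 and 2.51 times PDK3, and PFKFB3 at 1.08, 1.31 and 1.07 times PFKFB4. PFKP, not distinguished from the median gene, was called in 6 alternatives, 5 times below it and once, under the 1-count filter, above it (0.70). No paired analysis was possible because the 3 libraries form 1 group. Depth limits HK3, PKLR and PFKFB1, which are known only to be near or under the floor of 3 counts or at a few counts.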
